A study of Mus musculus with 3 samples.

Results

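The regions described here were the tiled regions that lie closest to the distal ends of the mouse autosomes. A tiled region was a run of at least 3 array probes whose start positions on the mm9 genome build were no more than 500 bp apart. A region was a member if its midpoint fell within the last 3 Mb before the highest probe end of its chromosome, on chromosomes 1 to 19. By this rule 942 of 28880 tiled regions were members, and 26733 other autosomal regions were used for comparison. The choice used position alone and no measured value.

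Methylated DNA of frontal cortex was profiled by immunoprecipitation and array hybridisation (MeDIP-chip) in untreated (naive) male C57BL/6 mice aged 2 months. Each of 3 arrays held a DNA pool from 3 mice. In every pool 2 µg of sonicated DNA was precipitated with 10 µg of an antibody against methylated cytosine, stated not to bind hydroxymethylated DNA, and 50 µl of protein G, and both the input and the bound DNA were amplified genome-wide before labelling. The study had this 1 group and no other tissue, treatment or genotype, so all comparisons below are between places in the genome. The sample titles number the pools 1 to 3 and the design text calls them triplicates, whereas the sample descriptions give all of them the same biological replicate number. They were treated as 3 separate pools, so every SD and p-value here rests on the titles and the design text. Pooling also means that the spread between single animals was not measured. Input DNA carried Cy3 and bound DNA carried Cy5 on every array, so dye bias and enrichment cannot be told apart. The tissue label cannot be checked with marker genes, since the array measures DNA.

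In vertebrates DNA methylation lies mainly on cytosines that precede guanines, and most of the genome is methylated while CpG islands at active promoters are usually not. An antibody that binds methylated cytosine recovers most from stretches that are both methylated and rich in CpG, so a low value can come from unmethylated DNA or from DNA with few CpGs. Mouse chromosomes are acrocentric: the centromere sits beside one telomere, at the proximal end where coordinates begin, and the distal end is the far telomere. Genes next to telomeres are known in several organisms for position-dependent silencing, and subtelomeric repeats in mammals are known to be heavily methylated.

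The value of a region was the mean over its probes of log2 bound over input, after taking off the median of all probes on the array. A value of 0 is therefore the middle of the array and not the absence of methylation, and the most common value lay above that median on each array. The members held 4 to 143 regions per chromosome. Chromosome 10 had 143, chromosome 15 had 120, chromosome 11 had 110, chromosome 2 had 89 and chromosome 4 had 86. Chromosome 17 had 4, chromosomes 12, 13 and 18 had 10 each, and chromosome 3 had 15. Regions from the same chromosome end are neighbours and are not independent of each other.

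Taken as 1 set, the members sat close to the rest of the autosomes. Their mean value was -0.04 on array 1, -0.06 on array 2 and -0.09 on array 3, a mean of -0.06 ± 0.02 (SD, n = 3 arrays). The other autosomal regions averaged -0.05 ± 0.02 (SD, n = 3). The middle 90% of member values ran from -1.18 to 1.29, with a median of -0.13 and extremes of -2.26 and 2.49. The members thus held both strongly depleted and strongly enriched DNA, but all tiled regions together ran further, from -2.67 to 3.90. In a limma fit of each region against the array median with Benjamini-Hochberg adjustment over all regions, 273 members (29.0%) were higher and 383 (40.7%) were lower at an adjusted p under 0.05. The share called over all tiled regions was 28.0% higher and 38.1% lower, so the members' shares were near the background. The remaining 286 members did not pass the threshold. Where 0 is set decides these counts: with each array centred on its most common value 88 members were higher and 722 lower, against 8.64% and 77.0% of all regions. With each chromosome centred on its own interior 288 were higher and 356 lower, against 30.4% and 35.6% of autosomal regions. With probes above background in both channels 758 members had a value, and the balance turned: 392 (51.7%) were higher and 183 (24.1%) lower, against 51.8% and 22.6% of all regions measured that way. Of the called members, 89 (9.45% of all members) were at least 2-fold above the median and 84 (8.92%) at least 2-fold below it, near the 8.84% and 8.12% over all regions. No array disagreed in sign with the others in 773 members (82.1%), against 79.3% of all regions. Across the 942 members the arrays correlated with a Pearson's r of 0.92, 0.91 and 0.94, as a description over regions that share arrays.

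The members resembled other regions in build. Their median length was 1353.5 bp with 14 probes, against 1341 bp and 14 probes in the rest. Mean log2 input signal was 9.22 in the members and 9.14 in the rest. Input was well above background in 76.2% of member measurements against 73.6%, and bound DNA in 57.3% against 55.2%. In 15 members every probe measurement was well above background in both channels, and another 15 members had no bound measurement above background. All 383 lower members held at least 1 bound measurement below that limit, and 201 of them had under 50% of bound measurements above it, so how far below the median they lie is uncertain.

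To ask whether chromosome ends differ from the rest of their own chromosome, the mean of the members was set against the mean of the other regions of the same chromosome, and the 19 differences were averaged with equal weight. The difference was -0.09 on array 1, -0.07 on array 2 and -0.08 on array 3, a mean of -0.08 ± 0.01 (SD, n = 3; exact two-sided sign-flip permutation test, p = 0.25, the smallest value that 3 arrays allow). All 3 arrays gave the same sign, but the size depended on how chromosomes were weighted and on the window. It was -0.01 with all regions pooled, -0.02 among chromosomes with at least 20 members, and -0.05 without chromosome 17, which had 4 members. Pooled within strata of region length and input signal it was also -0.02, so the strata did not shrink the pooled value. With a window of 5 Mb it was -0.02 and with a window of 1 Mb it was -0.31.

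**Figure D1:**
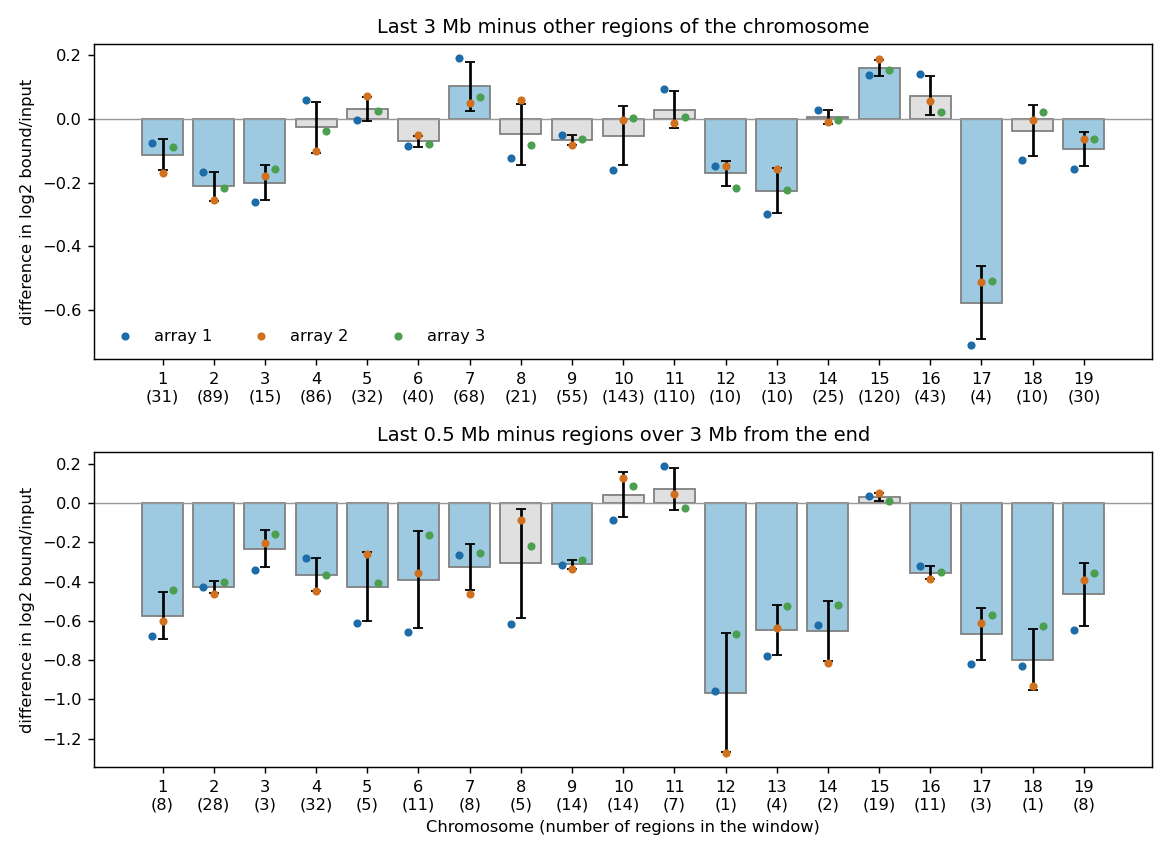
Difference in mean log2 bound over input between the distal window and the other regions of each autosome, for the last 3 Mb (top) and the last 0.5 Mb (bottom). Bars are means of 3 arrays, error bars are SDs, points are single arrays, blue bars passed the limma threshold, and numbers in brackets count the regions in the window. In the top panel bars lie on both sides of 0, and in the bottom panel 16 of 19 lie below it.

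The window of 3 Mb was not uniformly low. In a limma fit of the 19 chromosome differences with Benjamini-Hochberg adjustment, 7 of 19 chromosomes (36.8%) were lower at their distal end and 2 of 19 (10.5%) were higher. The p-values of this fit measure the spread between arrays and not that between regions. The proximal ends gave similar counts in the same test, with 9 of 19 (47.4%) lower and 2 of 19 (10.5%) higher in the first 3 Mb after the lowest probe start. Chromosome 17 had the lowest difference, with -0.71, -0.51 and -0.51 on the 3 arrays and a mean of -0.58 ± 0.11 (SD, n = 3; limma adjusted p = 5.95e-17). That value rested on 4 regions, and each of them was lower than the array median. Chromosomes 13 (-0.23), 2 (-0.21), 3 (-0.20) and 12 (-0.17) followed, and of these chromosome 2 rested on 89 regions and the others on 10 to 15. In the authors' deposited values chromosome 2 stood at -0.01 and chromosome 13 at -0.05, and neither passed (limma adjusted p = 0.689 and 0.107). Their calls depended on the processing: direction and call held in 10 of 14 alternatives for chromosome 13, 13 for chromosome 2, 12 for chromosome 3 and 11 for chromosome 12. With both channels above background chromosome 13 turned to 0.25 and passed as higher (limma adjusted p = 4.32e-11). Chromosomes 1 (-0.11) and 19 (-0.09) were lower by less, and their calls held less often. Chromosome 1 kept direction and call in 6 of 14 alternatives and chromosome 19 in 4 of 14, with 5 of those 14 reversing its sign.

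The distal ends of chromosomes 15 and 7 were higher than the rest of their chromosomes. On chromosome 15 the difference was 0.14, 0.19 and 0.15 on the 3 arrays, a mean of 0.16 ± 0.02 (SD, n = 3; limma adjusted p = 0.000319). On chromosome 7 it was 0.19, 0.05 and 0.07, a mean of 0.10 ± 0.08 (SD, n = 3; limma adjusted p = 0.0189). The arrays of chromosome 7 spread widely, with array 1 well above the other two, and the call of chromosome 7 was lost in 6 of 14 alternatives, among them leaving out array 3 (limma adjusted p = 0.11). The remaining 10 chromosomes did not pass the threshold, and their means ran from -0.07 on chromosome 6 to 0.07 on chromosome 16.

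The distal differences of the chromosomes also departed from each other beyond the spread between arrays. The spread between regions does not enter this test. Its SD was 0.90 over the 120 members of chromosome 15 and 0.86 over the 68 of chromosome 7. When each distal difference was set against the mean of the other 18 on the same array, 6 of 19 chromosomes (31.6%) departed upward and 5 of 19 (26.3%) downward in limma with Benjamini-Hochberg adjustment. Chromosome 15 stood 0.25 above the other chromosomes (limma adjusted p = 8.92e-07) and chromosome 7 stood 0.19 above them (limma adjusted p = 8.15e-05). Chromosome 17 stood -0.53 from the others (limma adjusted p = 4.4e-15). These counts were sensitive to single arrays: without array 2 there was 1 departure upward and 1 downward, and without array 3 there were 3 and 1.

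Distance from the end separated the members more than membership itself did. Averaged over chromosomes, values were lowest in the last 0.5 Mb and climbed inward. The mean passed the level of the chromosome's interior between 1 and 2 Mb and lay above it between 2 and 3 Mb. Each class below was set against the regions of the same chromosome more than 3 Mb from the end and averaged over chromosomes.

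In the last 0.5 Mb the difference was -0.47, -0.42 and -0.33 on the 3 arrays, a mean of -0.41 ± 0.07 (SD, n = 3; exact sign-flip permutation test, p = 0.25, the smallest possible). From 0.5 to 1 Mb it was -0.24 ± 0.05 (SD, n = 3 arrays), with 11 of 17 chromosomes below their interior. From 1 to 2 Mb it was 0.01 ± 0.02, although 12 of 19 chromosomes were still below their interior. From 2 to 3 Mb it was 0.17 ± 0.06, with 3 of 17 chromosomes below their interior. The order of the classes was the same on each of the 3 arrays.

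Beyond the window the class means stayed slightly above 0 out to 30 Mb, with the larger ones inside 15 Mb. The class from 3 to 6 Mb gave 0.06 ± 0.01, that from 6 to 9 Mb gave 0.12 ± 0.04, that from 9 to 12 Mb gave 0.11 ± 0.03 and that from 12 to 15 Mb gave 0.09 ± 0.02. From 15 to 20 Mb the mean was 0.0089 ± 0.0047, from 20 to 30 Mb it was 0.03 ± 0.02, and beyond 30 Mb it was -0.03 ± 0.01 (all SD, n = 3 arrays). Within the last 3 Mb, the class means below the interior were those of the outermost 1 Mb.

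**Figure D2:**
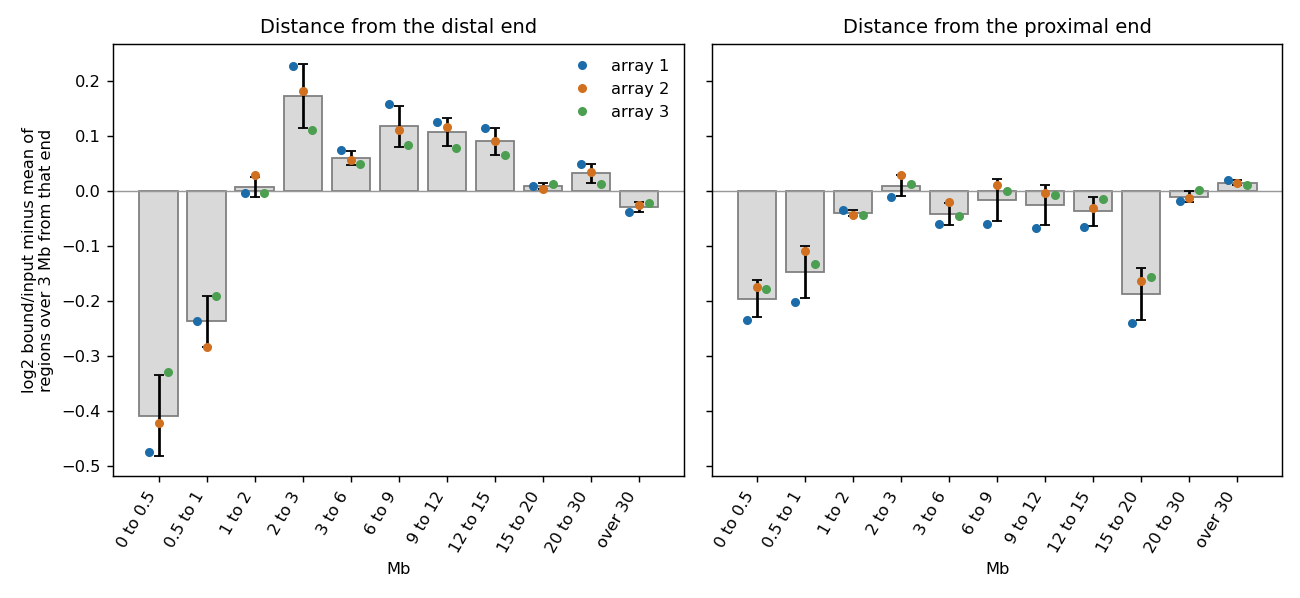
Mean log2 bound over input by distance from the distal end (left) and from the proximal end (right), minus the mean of regions over 3 Mb from that end, averaged over the autosomes with a value. Bars are means of 3 arrays, error bars are SDs and points are single arrays. At the distal end the bars run from -0.41 in the last 0.5 Mb to 0.17 at 2 to 3 Mb, and at the proximal end the first 0.5 Mb stands at -0.20. Distance from the proximal end is counted from the lowest probe start.

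The calls of single regions followed the same order. In the last 0.5 Mb, 101 of 184 members (54.9%) lay below the array median and 28 (15.2%) above it, both in the limma fit. Of 145 members at 0.5 to 1 Mb, 44.8% were lower and 25.5% higher, and of 326 members at 1 to 2 Mb, 39.3% were lower and 29.1% higher. Of 287 members at 2 to 3 Mb, 31.0% were lower and 39.4% higher. The outermost class thus held more lower and fewer higher calls than the 38.1% and 28.0% over all regions, and the innermost class the reverse.

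Signal strength moved with distance. Mean log2 input was 9.01 in the last 0.5 Mb, 8.92 at 0.5 to 1 Mb, 9.26 at 1 to 2 Mb and 9.45 at 2 to 3 Mb. Mean log2 bound signal was 8.50, 8.64, 9.08 and 9.41 in the same order, a wider span than that of the input. When regions were compared within strata of length and input signal, pooled over autosomes, the last 0.5 Mb gave -0.30 ± 0.03 against -0.31 ± 0.04 without strata, and 2 to 3 Mb gave 0.16 ± 0.03 against 0.17 ± 0.05 (SD, n = 3 arrays). The order by distance was the same within strata, and slightly smaller at both of its ends. For 0.5 to 1 Mb the pooled value was -0.07 ± 0.02 within strata and -0.09 ± 0.02 without them. Both were smaller than the -0.24 of equally weighted chromosomes, so for this class the weighting made most of the gap. CpG content was not used here, and its part in the order was not tested.

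A comparison inside the window gave the same picture without using the chromosome interior. The last 1 Mb minus 2 to 3 Mb was -0.57, -0.48 and -0.33 on the 3 arrays, a mean of -0.46 ± 0.12 (SD, n = 3; exact sign-flip permutation test, p = 0.25, the smallest possible). It was below 0 on 15 of the 17 chromosomes with regions in both places, and 14 of 17 (82.4%) passed the threshold in limma with Benjamini-Hochberg adjustment. The exceptions were chromosome 10, with 0.16 ± 0.18 (SD, n = 3), chromosome 3, with 0.03 ± 0.03, and chromosome 11, with -0.05 ± 0.04. On chromosome 10 the last 1 Mb was dim, with a mean log2 input of 7.25 at 0.5 to 1 Mb and 7.53 in the last 0.5 Mb. The steepest were chromosome 13 (-0.95 ± 0.20, from 5 and 3 regions), chromosome 15 (-0.85 ± 0.10, from 36 and 35 regions) and chromosome 2 (-0.81 ± 0.17, from 48 and 4 regions). Leaving out any 1 chromosome kept the mean between -0.50 and -0.43.

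The outermost 0.5 Mb was lower than the chromosome interior on 16 of 19 autosomes, and 15 of 19 (78.9%) passed the threshold in limma with Benjamini-Hochberg adjustment. The first 0.5 Mb after the lowest probe start, at the proximal end, was lower on 15 of 19, of which 11 (57.9%) passed as lower, and 3 of 19 (15.8%) passed as higher. Chromosome 12 had the lowest value, -0.97 ± 0.30 (SD, n = 3), followed by chromosome 18 with -0.80 ± 0.16, but each of these rested on 1 region. In those regions 37.0% and 18.5% of bound measurements were above background. Chromosomes 17 (-0.67), 14 (-0.65), 13 (-0.65) and 1 (-0.57) held 2 to 8 regions. With more regions behind them, chromosome 2 stood at -0.43 ± 0.03 (28 regions) and chromosome 4 at -0.36 ± 0.08 (32 regions). Chromosome 8 had -0.62, -0.08 and -0.22 on the 3 arrays and did not pass, with a limma adjusted p of 0.05005 that lay just over the threshold. Chromosomes 10 (0.04), 11 (0.07) and 15 (0.03) were not lower. Each of these 3 departed upward from the mean of the other chromosomes, by 0.48, 0.51 and 0.47 (limma adjusted p = 4.88e-06, 2.35e-06 and 5.7e-06). Chromosome 10 was dim there, with a mean log2 input of 7.53, and its arrays gave -0.09, 0.13 and 0.09. Its value is therefore uncertain. Among chromosomes with at least 5 regions there, the mean was -0.29. The mean over all 19 autosomes was -0.41, and leaving out any 1 of them kept that mean between -0.44 and -0.38.

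**Figure D3:**
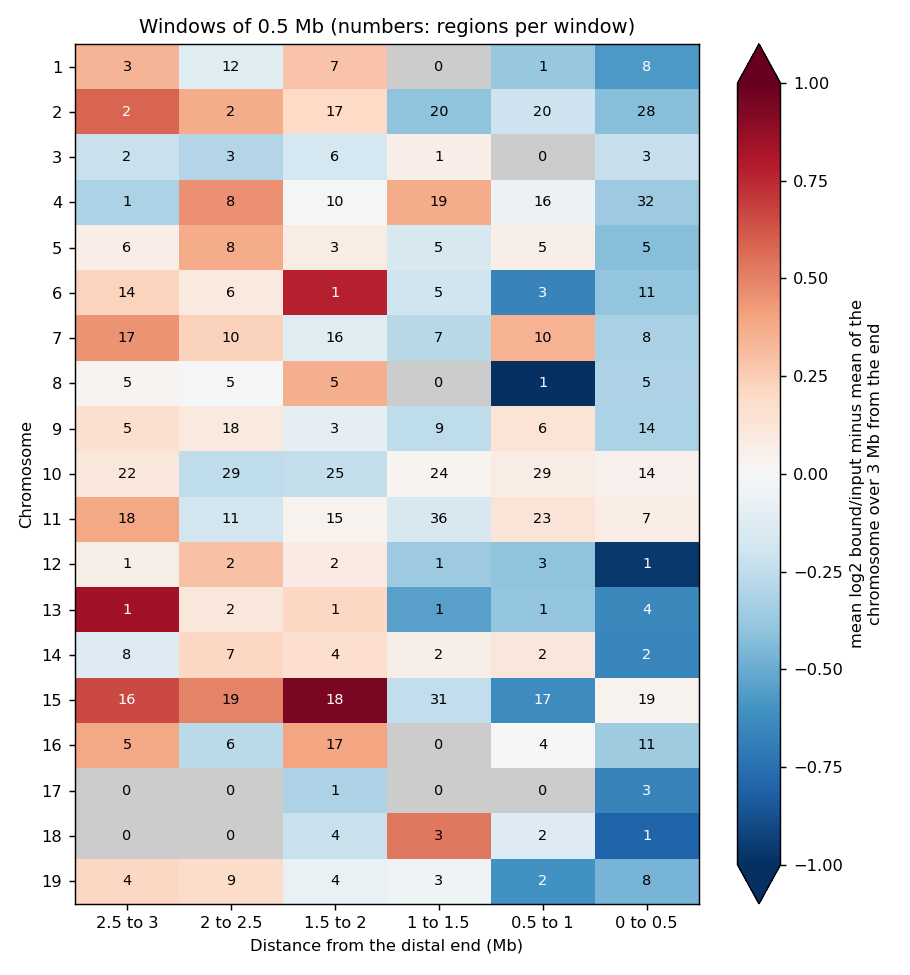
Mean log2 bound over input in windows of 0.5 Mb along the last 3 Mb of each autosome, minus the mean of that chromosome over 3 Mb from the end. Colour gives the difference averaged over 3 arrays, with values beyond 1 or -1 drawn at the end of the scale, numbers count regions, and grey windows hold none. Blue fills most of the outermost column, and chromosome 15 turns from red beyond 1.5 Mb to blue at 0.5 to 1.5 Mb.

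The proximal ends of the same chromosomes were the nearest comparable regions, with 825 regions in the first 3 Mb after the lowest probe start. That start lay between position 3000924 (chromosome 5) and position 3661395 (chromosome 1), so the proximal windows did not reach the place where coordinates begin. Their difference from the rest of the chromosome was -0.13, -0.10 and -0.10 on the 3 arrays, a mean of -0.11 ± 0.02 (SD, n = 3). The distal windows were 0.03 ± 0.01 above the proximal windows (SD, n = 3; exact sign-flip permutation test, p = 0.25, the smallest possible), and this turned to -0.12 with windows of 1 Mb. In the outermost 0.5 Mb covered by probes the distal end was the lower one. The first 0.5 Mb stood at -0.20 ± 0.03 from its chromosome, and the last 0.5 Mb lay -0.22 ± 0.05 from the first 0.5 Mb (SD, n = 3; exact sign-flip permutation test, p = 0.25, the smallest possible). The arrays gave -0.24, -0.25 and -0.15 for that difference, all of 1 sign. At the proximal end the 2 to 3 Mb class was 0.01 ± 0.02, smaller than the 0.17 ± 0.06 of the distal 2 to 3 Mb class.

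The very last tiled region of each chromosome was examined on its own. In the limma fit over all regions, 10 of these 19 were called lower, 2 were called higher and 7 did not pass the threshold, beside the 38.1% lower and 28.0% higher over all regions. In 14 of them the value was below 0 on all 3 arrays, and the median of the 19 was -0.43. Input was dim in several: 8 of the 19 had under 50% of input measurements well above background.

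The lowest last region was on chromosome 16 (chr16:98217980-98218628, 6 probes), with -1.56, -1.84 and -1.53 on the 3 arrays, a mean of -1.65 ± 0.17 (SD, n = 3; limma adjusted p = 5.81e-07). All of its input measurements were above background and 61.1% of its bound measurements were. The last region of chromosome 12 (chr12:121183242-121184611) followed with -1.04 ± 0.28, then that of chromosome 18 (chr18:90678551-90679712) with -0.91 ± 0.13 and that of chromosome 4 (chr4:155482891-155484224) with -0.85 ± 0.05. Of their bound measurements 37.0%, 18.5% and 47.2% were above background, so how low they lie is uncertain. With probes above background in both channels, that of chromosome 12 stood at -0.44. That of chromosome 4 stood at -0.08 and did not pass (limma adjusted p = 0.599), and that of chromosome 18 had no value. The last regions of chromosomes 13 and 14 stood at -0.83 ± 0.12 and -0.69 ± 0.04. In both, the values on the 3 arrays lay close together.

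The last region of chromosome 19 (chr19:61304121-61304828, 7 probes) went the other way. Its values were 1.51, 1.23 and 1.39 on the 3 arrays, a mean of 1.38 ± 0.14 (SD, n = 3; limma adjusted p = 1.64e-06), with 76.2% of input and 66.7% of bound measurements above background. The next tiled region inward lay 340 kb from the end, and the 9 regions before the last one formed an unbroken run of lower calls (chr19:60544008-60965824) with a mean of -0.86 ± 0.17 (SD, n = 3). The outermost 1 Mb of chromosome 19 thus held 10 regions, of which 9 were lower and the last was higher. The other last region called higher was on chromosome 1 (chr1:197053931-197054267), at 0.34 ± 0.27, with 26.7% of input measurements above background, and it kept direction and call in 2 of 6 alternatives.

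The members with the highest values were ranked among 123 higher members that were bright in both channels (at least 80% of measurements above background) and held at least 8 probes. The top was chr7:149762855-149764269, with 2.63, 2.54 and 2.27 on the 3 arrays and a mean of 2.48 ± 0.19 (SD, n = 3; limma adjusted p = 4.98e-08). Next came chr15:101681066-101682436 at 2.42 ± 0.18, chr10:129019769-129020536 at 2.41 ± 0.31 and chr16:96582935-96583543 at 2.22 ± 0.13. Of the 10 highest, 5 lay on chromosome 15, all more than 1.5 Mb from its end, and 2 lay on chromosome 11. The highest member of all, chr9:121512632-121513916 at 2.49 ± 0.16, was outside this ranking because 79.2% of its input measurements were above background, and it was singled out after its value was seen.

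The lowest members were ranked among 139 lower members with at least 8 probes and at least 80% of input and 50% of bound measurements above background. The lowest was chr15:103102787-103103530, 293.54 kb from the end, with -2.28, -2.45 and -2.04 on the 3 arrays and a mean of -2.26 ± 0.21 (SD, n = 3; limma adjusted p = 8.35e-08). The next was chr10:127739313-127740589 at -2.20 ± 0.51, where array 3 (-1.64) was less low than array 1 (-2.63). Then came chr2:181597962-181599234 at -1.65 ± 0.23 and chr2:181334942-181336183 at -1.52 ± 0.05. Another region of chromosome 2, chr2:181572080-181572795, was also among the 10 lowest at -1.36 ± 0.14. These 3 regions of chromosome 2 lay 127, 390 and 154 kb from its end. Some low members were outside this ranking. Among them were a region 0.5 to 1.5 Mb from the end of chromosome 15 at -2.22 and the last region of chromosome 16 at -1.65, which had 6 probes. The highest and the lowest 10 were each called, with the same sign, in every alternative processing that gave them a value.

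The 3 Mb limit did not fall at a visible step. The 5 members just inside had values from -0.62 to 1.78, and the 5 regions just outside had values from -0.71 to 0.61.

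**Figure D4:**
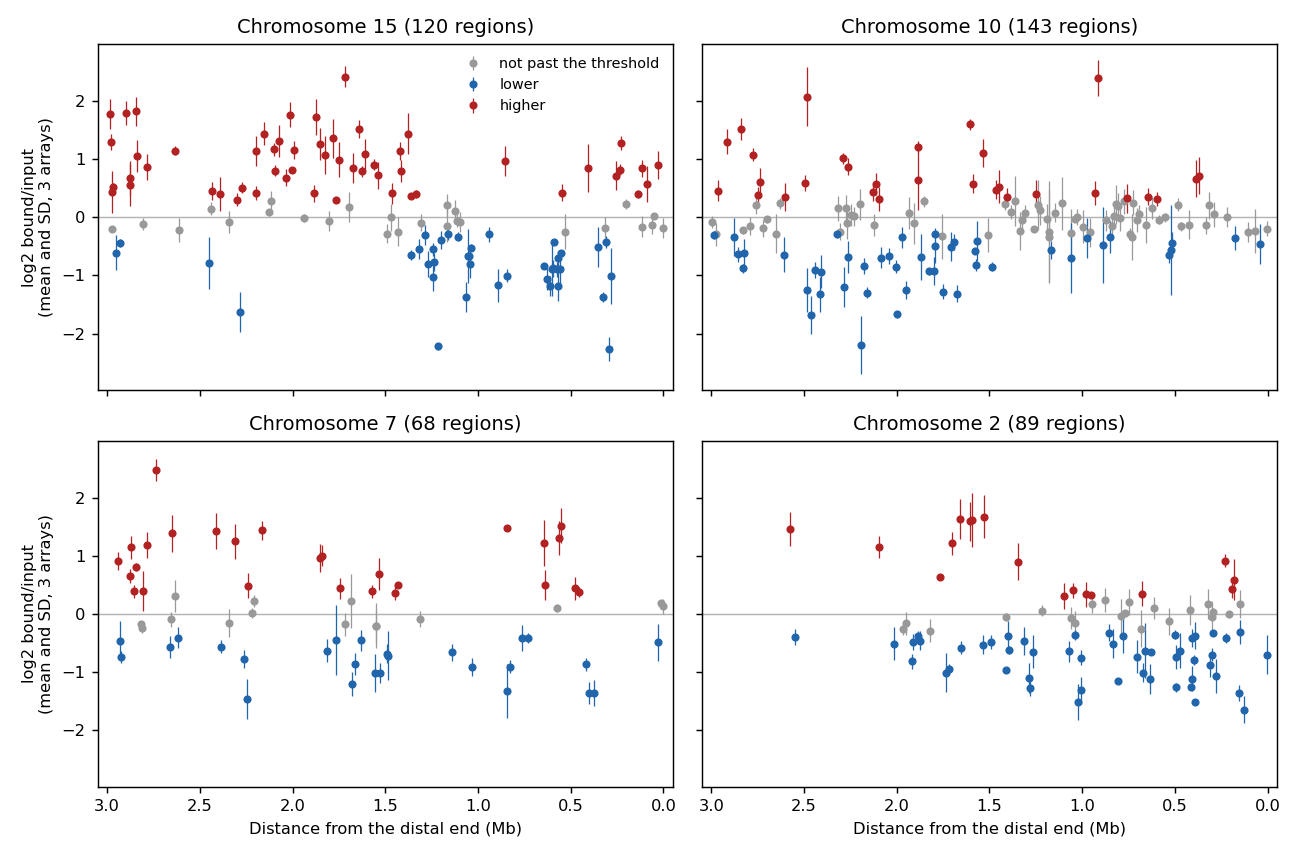
Every tiled region of the last 3 Mb of chromosomes 15, 10, 7 and 2, as mean and SD of log2 bound over input over 3 arrays, against distance from the distal end. Red points were higher and blue points lower than the array median in the limma fit, and grey points did not pass. Chromosome 15 is mostly red beyond 1.5 Mb and mostly blue at 0.5 to 1.5 Mb, and the outer 1.5 Mb of chromosome 10 is mostly grey.

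Chromosome 15 changed from high to low along its end. Its 53 regions at 1.5 to 3 Mb averaged 0.78, 0.70 and 0.58 on the 3 arrays, a mean of 0.69 ± 0.10 (SD, n = 3), with 39 higher and 4 lower. Its 48 regions at 0.5 to 1.5 Mb averaged -0.45, -0.37 and -0.36, a mean of -0.39 ± 0.05, with 8 higher and 30 lower. The last 0.5 Mb returned to 0.02 ± 0.05 over 19 regions, with 8 higher and 5 lower. For comparison, 28.0% of all regions were higher and 38.1% lower. The limits of these blocks were set after the values were seen, so they describe the pattern and do not test it. Input signal hardly differed between the blocks, at 9.71, 9.47 and 9.45 on the log2 scale. The longest run of consecutive lower calls among the members, 12 regions, lay in this stretch (chr15:102552337-102845479, mean -0.88 ± 0.14), and a run of 7 consecutive higher calls lay further in (chr15:101294025-101405529, mean 1.10 ± 0.13).

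Gene names could not be given to single regions, because the array gives mm9 positions and the gene table used here is RefSeq's on GRCm38. Gene order at the distal ends of that build is given as background only, since the ends of the builds need not match to the base. The last 3 Mb of chromosome 15 held 85 protein-coding genes there, among them 26 keratin genes, which encode the intermediate filament proteins of epithelia and hair, and then, nearer the end, the 9 Hoxc genes, developmental transcription factors that pattern the body axis. Whether the change from high to low values falls between the keratin and the Hoxc genes was not tested.

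Chromosome 10 had the most members, and the outer part of its end was dim. Its 67 regions in the last 1.5 Mb had a mean log2 input of 7.40, with 34.3% of input and 19.03% of bound measurements above background, against 9.52, 81.9% and 61.5% in its 76 regions at 1.5 to 3 Mb. The outer regions averaged -0.20, 0.14 and 0.07 on the 3 arrays, a mean of 0.00 ± 0.18 (SD, n = 3), with 11 higher and 11 lower. The arrays disagreed in sign, and most of the 67 regions passed in neither direction. The inner regions averaged -0.19 ± 0.02, with 19 higher and 35 lower, beside 28.0% higher and 38.1% lower over all regions. At this signal the methylation of the outer part of chromosome 10 could not be placed on either side of the array median. On GRCm38 the last 3 Mb of chromosome 10 held 129 protein-coding genes, of which 58 were olfactory receptor genes, which encode odour receptors of the nasal epithelium, and 7 were retinol dehydrogenase genes.

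Chromosome 2 was low over most of its end. Its 68 regions in the last 1.5 Mb averaged -0.40, -0.41 and -0.41 on the 3 arrays, a mean of -0.41 ± 0.01 (SD, n = 3), with 9 higher and 41 lower. Its 21 regions at 1.5 to 3 Mb averaged 0.20 ± 0.14, with 8 higher and 10 lower. Their median was -0.29, on the other side of 0 from their mean. Shares over all regions were 28.0% higher and 38.1% lower. Chromosome 2 ends in a gene-rich stretch, with 63 protein-coding genes in the last 3 Mb on GRCm38.

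Chromosome 7 alternated along its end. Its 27 regions at 2 to 3 Mb averaged 0.33 ± 0.11 (SD, n = 3), with 13 higher and 7 lower, and its 8 regions in the last 0.5 Mb averaged -0.37 ± 0.10, with 2 higher and 4 lower. Between them, 16 regions at 1.5 to 2 Mb averaged -0.16 ± 0.02, with 5 higher and 7 lower. Further out, 7 regions at 1 to 1.5 Mb averaged -0.31 ± 0.05, with 2 higher and 4 lower. The 10 regions at 0.5 to 1 Mb averaged 0.31 ± 0.16, with 5 higher and 4 lower. These counts stand beside 28.0% higher and 38.1% lower over all regions. On GRCm38 the last 3 Mb of chromosome 7 held 44 protein-coding genes. They include the imprinted cluster with Igf2, a growth factor, Cdkn1c, a cell cycle inhibitor, Kcnq1, a potassium channel, and Phlda2, and also Ins2, which encodes insulin, and Th, the rate-limiting enzyme of dopamine synthesis. Imprinted genes are known for methylation that differs between the parental copies, which the array cannot separate.

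Chromosome 17 had the sparsest end. Of its 4 members, chr17:95149056-95150081 was the lowest, with -0.93, -1.03 and -0.96 on the 3 arrays, a mean of -0.97 ± 0.05 (SD, n = 3). The other 3 stood at -0.60 ± 0.08, -0.54 ± 0.38 and -0.35 ± 0.08, and 3 of the 4 lay in the last 17.4 kb. On GRCm38 the last 3 Mb of chromosome 17 held 3 protein-coding genes.

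Neighbouring members were more often called alike than in opposite directions. Of 923 pairs of neighbouring members, 12.8% were both higher, 21.7% were both lower and 15.7% were called in opposite directions. The shares in the rest of the autosomes were 9.99%, 17.1% and 17.96%. These shares are descriptions with no test. The longest run of consecutive higher calls held 8 regions on chromosome 11 (chr11:120900565-121021746) with a mean of 0.95 ± 0.20 (SD, n = 3), and it lay in the last 1 Mb of a chromosome whose outermost regions were not low.

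Centres were lower than edges in members and in other regions alike, and whether the members differed in this depended on the weighting. In 623 members of 1000 to 1800 bp, probes within 200 bp of the midpoint averaged -0.21 and probes over 500 bp from it averaged 0.14, a difference of -0.35 ± 0.08 (SD, n = 3). In other autosomal regions the difference was -0.29 ± 0.08. The members minus the rest, by chromosome, gave -0.06, 0.04 and 0.00 on the 3 arrays, a mean of -0.01 ± 0.05 (SD, n = 3; exact sign-flip permutation test, p = 1). With regions pooled over autosomes the arrays gave -0.06, -0.05 and -0.05, a mean of -0.05 ± 0.01, beyond the spread between arrays. With filters on background it went either way beyond that spread, to 0.15 ± 0.02 for input and -0.20 ± 0.05 for both channels. In limma, 80 members (12.8%) had a higher centre and 221 (35.5%) a lower one, against 14.7% and 33.5% over all regions of this size. In the last 0.5 Mb both parts were low, with -0.60 at the centre and -0.18 at the edges, whereas at 2 to 3 Mb the centre stood at -0.03 and the edges at 0.31.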

How the data were processed

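Signals of 3 dual-colour arrays were read from their scanner files. Per the file headers, Agilent Feature Extraction 10.7 made processed signal intensities for input (green) and bound DNA (red), and the deposited flags mark spots above background. The authors' deposited value table holds log2 values; its columns matched log2 of background-subtracted bound over input medians, on the same distribution for each array, with a median of -0.97, so its centring is the authors' own and was not stated. It served as an alternative.

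Of 409606 non-control probes, 409597 had an mm9 position. Log2 of the processed red over green intensity was centred on each array's median, with no loess, and averaged by region. Input was well above background in 69.0% to 83.3% and bound DNA in 47.3% to 65.9% of spots per array. Only 3 arrays limit the precision. Tests used limma 3.58.1 in R 4.3.3 (1-group fit, Benjamini-Hochberg over all regions or over the chromosomes) and exact sign-flip permutation over arrays. P-values measure the spread between 3 pools. The scripts were tested on simulated data.

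Alternatives covered background correction (normexp with an offset of 50), loess, filters, windows, centring, weighting, left-out arrays and left-out chromosomes. Normexp used median signals, since no mean spot signals were available. Regions named were each chromosome's last region, the 10 highest and 10 lowest bright members, and chromosomes past the threshold. Members and lists were chosen with earlier results of these data known, and the 0.5 Mb comparison was added after seeing the distance classes.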

Additional observations from a re-analysis of the deposited data

How the results depend on the processing

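No paired analysis was possible because the study had 1 group. The distal minus rest difference stayed below 0 in 37 of 37 alternatives, from -0.31 to -0.01, the last 0.5 Mb in 35 of 35, from -0.58 to -0.18, and the last 1 Mb minus 2 to 3 Mb in 30 of 30, from -0.68 to -0.21. Many of these alternatives left out 1 autosome in turn, which could hardly turn the sign of such a mean. Those gave -0.09 to -0.05, -0.44 to -0.38 and -0.50 to -0.43, in the same order. The last 0.5 Mb was lower on 15 to 19 chromosomes and passed the threshold on 12 to 17.

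Counts of chromosomes moved more, and the cause was not tested. Of the 2 higher chromosomes, normexp gave 4, the authors' deposited values 5, probes with input above background 4, both channels above background 5, regions of 1000 to 1800 bp 1, medians 1, a 1 Mb window 0 and a 5 Mb window 8. Of the 7 lower, a 1 Mb window gave 16 and medians 4. Without 1 array the counts ran from 1 to 2 higher and from 4 to 9 lower. Upward departures (6) became 10 with input and 12 with both channels above background, 2 with 1000 to 1800 bp, 3 with 1 Mb and 2 with medians, and 1 to 9 without 1 array. Downward departures (5) became 3 with normexp, 3 with 1000 to 1800 bp, 3 with medians, and 1 to 6 without 1 array.

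With both channels above background, 392 members were higher and 183 lower, against 51.8% and 22.6% of all regions. Centred on the mode of each array, 88 were higher and 722 lower.

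The distal minus proximal difference turned to -0.12 with 1 Mb windows. The difference in centre minus edges turned to 0.017 with loess, 0.031 in the authors' deposited table, 0.15 with input above background, 0.014 with a smaller gap between probes, ran from -0.031 to 0.019 without 1 array, and was -0.20 with both channels above background and -0.05 with regions pooled. Chromosome 1 turned to 0.00069 with regions of 1000 to 1800 bp, chromosome 3 to 0.041 and chromosome 13 to 0.25 with both channels above background, and chromosome 15 to -0.31 in a 1 Mb window. Chromosome 19 turned to 0.012 in the authors' deposited table, 0.053 with input and 0.015 with both channels above background, 0.087 with 1000 to 1800 bp and 0.15 in a 5 Mb window. Among last regions, chromosome 1 turned to -0.20 in the authors' deposited table, chromosome 3 to 0.19 with both channels above background, chromosome 10 to 0.0059 with normexp, chromosome 11 to -0.021 with normexp, -0.59 with loess and -0.038 with input above background, and chromosome 15 to 0.065 with loess. Direction and call were kept in 8 of 14 alternatives for chromosome 7, 6 for chromosome 1 and 4 for chromosome 19. They were kept in 13 for chromosome 2, 12 for chromosome 3, 11 for chromosome 12 and 10 for chromosome 13. Chromosome 2 lost its call in the authors' deposited table, at -0.012 (limma adjusted p = 0.689). Of 126 alternatives of the 9 called chromosomes, 91 kept direction and call, as did 135 of 167 for the last regions and all 98 and 96 for the highest and lowest regions.

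Bound signal below background in many lower regions limits how low a value can be read, and 3 arrays allow no exact p under 0.25.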
